A study of Homo sapiens with 12 samples.

Results

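The comparison described here asks which genes respond differently to loss of anillin after 48 h than after 24 h. KYSE150 cells, an established line of esophageal squamous cell carcinoma, received a small interfering RNA against ANLN (siANLN) or a control RNA (siNC). The labels give the genotype as ANLN knockdown in the siANLN arms and as WT in the siNC arms, with 3 libraries each for siANLN at 24 h, siNC at 24 h, siANLN at 48 h and siNC at 48 h, 12 in all. All cells are of the same line and all were transfected, and the labels name 1 siANLN and 1 siNC treatment, so an effect of this siRNA on other transcripts cannot be told apart from loss of anillin. Poly(A) RNA was sequenced, and the quantity tested for each gene is the log2 change (siANLN over siNC) at 48 h minus the log2 change at 24 h, called the difference below. Genes entered if their ID stood in both deposited count tables, if they passed a filter on low counts and if the siNC level was within 4-fold at the 2 times. By this rule 13078 genes were tested of 61569 gene IDs listed in either table, 10934 of them protein-coding. Just inside the window were UBXN11, SGK494 and HIST1H2AG, with siNC levels 3.96-, 3.96- and 3.97-fold apart, and just outside it NPEPL1, SLC2A12 and CFAP298, with 4.01-, 4.03- and 4.03-fold.

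Anillin is an actin-binding scaffold that gathers myosin and septins at the contractile ring when a cell divides, and much of it sits in the nucleus between divisions. The series concerns this nuclear pool, the clustering of RNA polymerase II as transcription initiates and the genes that depend on it. A transcript that changes early and keeps its change gives a difference near 0, whereas one that moves only after a day gives a large one. Responses read out below include NF-kB and interferon signalling, which switch on inflammatory and antiviral genes, and the keratin programme of squamous epithelium.

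The 2 times were deposited in separate tables that were not made alike, and time, table and library set cannot be told apart. Total counts were 14891932 to 17921808 per library at 24 h and 11805488 to 12448411 at 48 h, and 87.6% to 89.1% of them lay in the genes tested. Replicates scattered more at 24 h, with a common biological coefficient of variation of 0.0373 against 0.0195 at 48 h. No 2 libraries of a group agreed within sampling noise (chi-square per degree of freedom 1.26 to 2.68). The labels call the libraries biological replicates without saying whether transfections were separate, so the p-values measure the spread between these libraries, which may be technical. Of 22 markers of fibroblasts, immune, endothelial and melanocytic cells, 4 were tested (COL1A1, CSF1R, VWF and MLANA). Their mean levels were 0.813 to 11.4 CPM, while the squamous keratin KRT5 averaged 2181 CPM. Levels of markers not tested are not in this range. Of the 4 melanocytic markers, 2 passed the filter on low counts but lay outside the siNC window. CPM here are counts scaled to library size with TMM factors.

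ANLN (ENSG00000011426, chromosome 7, 36389806 to 36453791, plus strand, protein-coding) was depleted in all siANLN libraries, with no overlap with siNC at either time. At 24 h the siANLN libraries held 127, 114 and 118 CPM, against 1051, 1019 and 1013 CPM in siNC. By 48 h they held 93.0, 83.0 and 93.6 CPM, against 806, 812 and 798 CPM in siNC. The log2 changes were −3.11 at 24 h and −3.16 at 48 h. Their difference of −0.06 (SE 0.05) did not pass the test (edgeR quasi-likelihood, Benjamini-Hochberg adjusted p = 0.503).

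Between the times 2335 genes differed in their response (17.9% of those tested), 1471 with a higher change at 48 h (11.2%) and 864 with a lower one (6.61%). Here and below a gene is called when its edgeR quasi-likelihood p, adjusted over all 13078 genes by the Benjamini-Hochberg method, is under 0.05. Most differences were small, with a median size of 0.29 among called genes on the log2 scale, and 39 genes were at least 2-fold higher and 73 at least 2-fold lower. The split by direction depends on scaling. With TMM 63.0% of the called genes were higher, whereas scaling by library size alone gave 1009 higher and 1199 lower (45.7% higher). The median difference over all genes is 0.01 with TMM and −0.03 with library size alone. More genes were called where counts were high, from 3.64% in the lowest quartile of mean level to 36.4% in the highest, so a gene not called at low counts may still differ. In the highest quartile 887 genes were called higher and 303 lower, so the shares of gene lists below also depend on the level of their members.

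In the same model 1990 genes changed at 24 h (15.2%) and 5399 at 48 h (41.3%), and these calls sort the 2335 differences into patterns. A change called only at 48 h accounts for 1562 of them (66.9%), and 544 more (23.3%) had changed in the same direction at 24 h by a smaller amount. Another 96 (4.11%) were called only at 24 h, 46 (1.97%) changed in opposite directions, 6 (0.257%) were smaller at 48 h in the same direction, and 81 (3.47%) were called at neither time. Replicate scatter was lower at 48 h, and its part in these pattern counts was not tested. The plot of change at 24 h against change at 48 h shows ANLN on the line of equal change and INHBA, CXCL8 and NOTCH3 far from it.

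**Figure D1:**
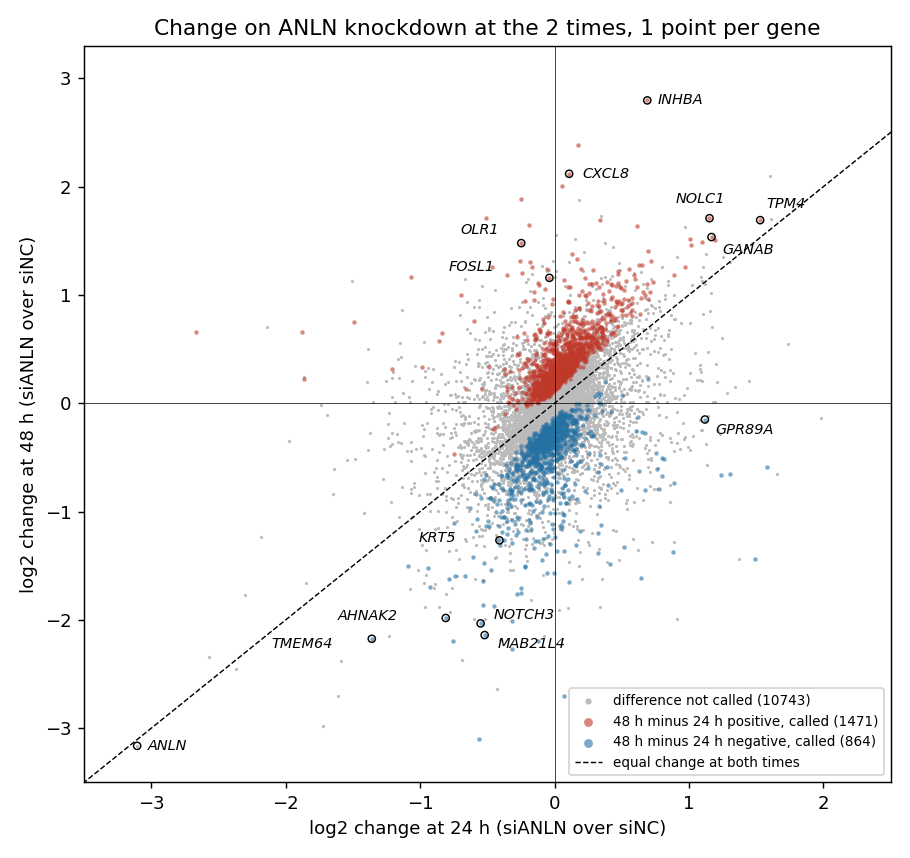
Log2 change (siANLN over siNC) at 24 h on the x axis and at 48 h on the y axis for the genes tested, 1 point per gene (1 gene lies outside the plotted range); red and blue points are genes whose difference was called positive (1471) or negative (864), and the dashed line marks equal change. The red and blue clouds stretch more along the y axis than along the x axis, and ANLN lies on the line near −3.11 and −3.16.

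Among called protein-coding genes that averaged 5 CPM or more, the 12 largest positive differences were those of INHBA, CXCL8, OLR1, AOX1, IL1R2, SERPINB2, FOSL1, CDK15, EHF, TRAF1, NEDD4L and IL1B. Of these, INHBA and NEDD4L were already called higher at 24 h, and the other 10 were called only at 48 h. Differences ran from 2.11 (INHBA) to 0.98 (IL1B).

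INHBA encodes the subunit of activin A, a secreted factor of the TGF-beta family. At 24 h its level was 13.4, 10.9 and 10.8 CPM in siANLN, against 6.67, 7.32 and 7.75 CPM in siNC. In the 48 h libraries it was 38.5, 37.5 and 36.0 CPM in siANLN, against 5.66, 4.49 and 5.95 CPM in siNC. The groups were apart at both times, with a 1.61-fold change at 24 h and a 6.95-fold change at 48 h (difference 2.11, SE 0.18, edgeR Benjamini-Hochberg adjusted p = 5.47e-17). On the log2(FPKM + 1) scale, which understates changes of low genes, the difference was 1.31.

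CXCL8 encodes interleukin-8, a chemokine that draws neutrophils. At 24 h it stood at 21.5, 21.4 and 21.6 CPM in siANLN, within the siNC range of 22.9, 17.4 and 19.6 CPM. At 48 h the siANLN libraries held 34.7, 30.7 and 31.9 CPM, against 8.39, 6.20 and 7.80 CPM in siNC. The groups overlapped at 24 h and were apart at 48 h, and the difference was 2.01 (SE 0.15, edgeR Benjamini-Hochberg adjusted p = 2.75e-20).

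FOSL1, which encodes the AP-1 subunit Fra-1, had the highest level of the 12. Its siANLN libraries held 289, 299.7 and 282 CPM at 24 h, against 308, 295 and 291 CPM in siNC. After 48 h they held 215, 221 and 219 CPM, against 94.1, 93.7 and 105 CPM in siNC. The groups overlapped at 24 h and were apart at 48 h, when siNC was low and siANLN closer to its own 24 h level (difference 1.20, SE 0.05, edgeR Benjamini-Hochberg adjusted p = 1.39e-33). OLR1, a receptor for oxidised low-density lipoprotein, was lower in siANLN at 24 h without a call (3.96, 3.49 and 3.58 CPM, against 4.72, 4.05 and 4.32 CPM in siNC). At 48 h it was higher, at 18.4, 18.9 and 19.6 CPM in siANLN, against 5.75, 6.56 and 8.08 CPM in siNC.

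Among the rest of the 12, NEDD4L encodes a ubiquitin ligase that limits epithelial sodium channels. Its change was 0.20 at 24 h and 1.24 at 48 h. TRAF1, an adaptor of TNF receptors, and IL1R2, the decoy receptor for interleukin-1, changed by 1.14 and 1.38 at 48 h, with 24 h values of 0.07 and 0.13 that were not called. SERPINB2, plasminogen activator inhibitor 2, changed by 1.09 at 48 h, and 19.9% of its exon bases overlap SERPINB10 on the same strand, so its reads are uncertain. The siNC mean was lower at 48 h than at 24 h in 9 of the 12 genes, and the siANLN mean was lower in 1. Because the siNC levels enter the difference themselves, these counts describe the genes and test nothing.

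The 12 largest negative differences by the same rule were those of MAB21L4, APOL3, NOTCH3, KRT16, RAB7B, ZSCAN31, GPR89A, AHNAK2, SAMD9L, KLK10, DNAH1 and ADGRB2, from −1.62 to −1.13. They include a receptor (NOTCH3), a stress keratin (KRT16), a peptidase of squamous epithelium (KLK10), a giant scaffold protein (AHNAK2), an axonemal dynein (DNAH1) and an interferon-stimulated gene (SAMD9L). Of the 12, 4 were already called lower at 24 h, and 1, GPR89A, was called higher at 24 h and not at 48 h. GPR89A has a near-identical copy, GPR89B, between which reads may be split, so its value is uncertain.

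NOTCH3 is a receptor that drives differentiation in stratified epithelium. At 24 h it stood at 13.2, 10.6 and 13.6 CPM in siANLN, against 17.0, 19.5 and 17.97 CPM in siNC. In the 48 h libraries it stood at 15.6, 14.3 and 14.5 CPM in siANLN, against 61.4, 58.7 and 61.5 CPM in siNC. The groups were apart at both times, and the wider gap at 48 h comes with a high siNC level and a siANLN level near that of 24 h (difference −1.48, SE 0.13, edgeR Benjamini-Hochberg adjusted p = 6.43e-16). AHNAK2 shows the same layout. Its siANLN libraries held 117, 108 and 106 CPM at 24 h, against 192, 183 and 207 CPM in siNC, and 89.0, 85.7 and 86.2 CPM at 48 h, against 349.5, 328 and 354 CPM in siNC. In 11 of these 12 genes the siNC mean was higher at 48 h than at 24 h, and in 7 the siANLN mean was lower. The bar plots of single libraries show the 4 groups for 8 genes of both directions.

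**Figure D2:**
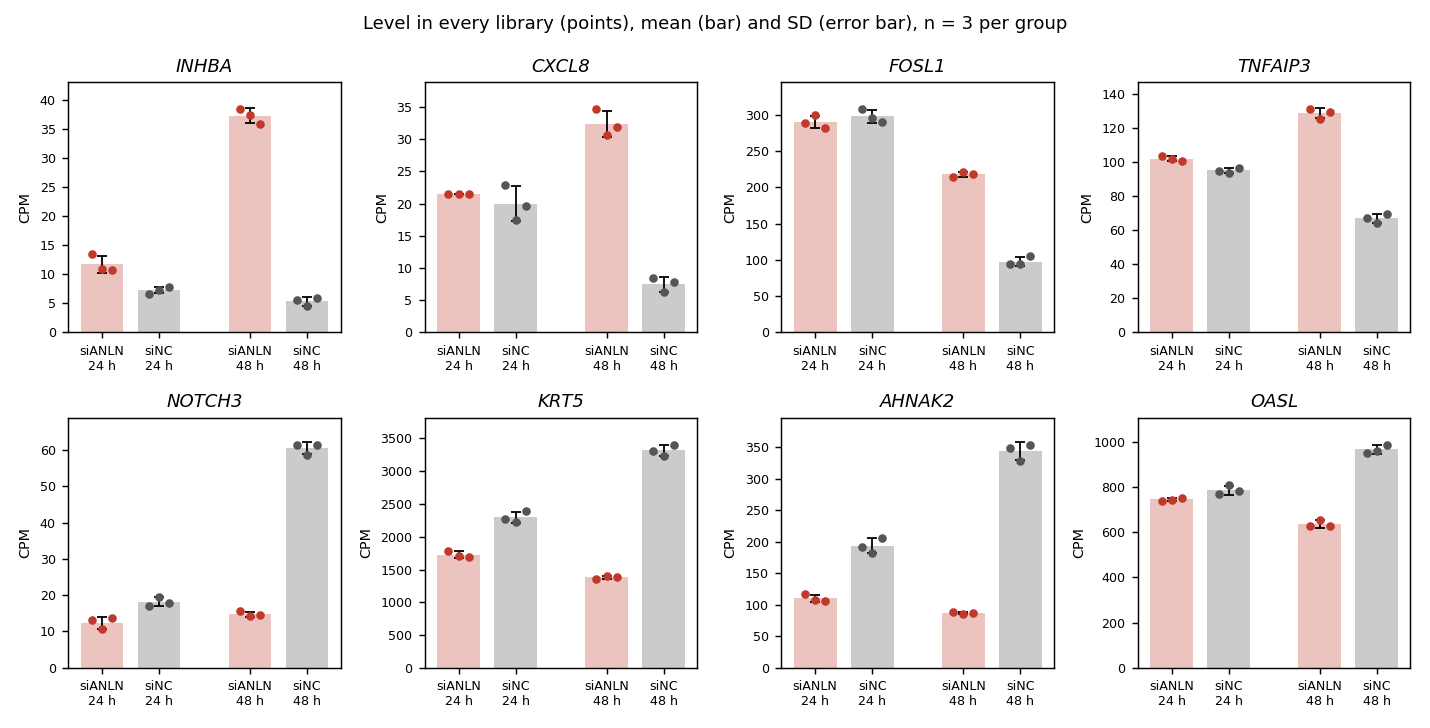
Level in CPM (y axis, linear from 0) of 8 genes in the 4 groups, siANLN (red) beside siNC (grey) at 24 h and at 48 h; points are libraries, bars are means and error bars are SD over 3 libraries. INHBA, CXCL8, FOSL1 and TNFAIP3 are higher in siANLN at 48 h, while NOTCH3, KRT5, AHNAK2 and OASL are lower, and for NOTCH3 the siNC libraries reach 58.7 to 61.5 CPM.

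NF-kB response genes had higher changes at 48 h than at 24 h. NF-kB dimers are held in the cytoplasm by IkB proteins until a receptor signal frees them, and their targets include cytokines, adhesion molecules and their own inhibitors. Of 32 listed genes 26 were tested, and 18 were called higher and 1 lower. That is 73.1% of the tested members beside 17.9% of all genes, with a median difference of 0.39 beside 0.01. The list was chosen with earlier results of these data known, and its direction is therefore no independent evidence. On log2(FPKM + 1) 13 were called higher and 1 lower.

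Of its ligands, CXCL8 has been given. IL1A, a cytokine released by damaged epithelium, held 75.7, 70.8 and 75.5 CPM in siANLN at 24 h, against 69.9, 65.8 and 70.7 CPM in siNC. After 48 h it held 172, 169 and 167 CPM in siANLN, against 86.0, 91.4 and 87.3 CPM in siNC (difference 0.83, SE 0.07, edgeR Benjamini-Hochberg adjusted p = 2.28e-18). All siANLN libraries were above all siNC libraries at both times, by a small margin at 24 h. The feedback inhibitor TNFAIP3, also called A20, differed by 0.84 (SE 0.06), and the subunit genes NFKB2 and RELB by 0.63 and 0.55. NFKBIZ, a nuclear IkB protein and the 1 member called lower, differed by −0.45 (SE 0.09), and IL6 by −0.01 without a call, with changes of −0.27 at 24 h and −0.28 at 48 h. The NF-kB subunits RELA and NFKB1 differed by 0.16 and 0.23, both called.

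Promoter windows of 2 of these genes, CXCL8 and TNFAIP3, are printed to show where NF-kB sites lie in front of the members with the smallest adjusted p. Each runs from 250 bases before to 50 after the RefSeq start on GRCh38.p14, 5′ to 3′ on the gene's strand, and capitals mark matches to GGNNNTTCC on either strand, a loose form of the kB site. CXCL8 lies at chr4:73740319-73740618 (plus strand) and TNFAIP3 at chr6:137867009-137867308 (plus strand).
CXCL8: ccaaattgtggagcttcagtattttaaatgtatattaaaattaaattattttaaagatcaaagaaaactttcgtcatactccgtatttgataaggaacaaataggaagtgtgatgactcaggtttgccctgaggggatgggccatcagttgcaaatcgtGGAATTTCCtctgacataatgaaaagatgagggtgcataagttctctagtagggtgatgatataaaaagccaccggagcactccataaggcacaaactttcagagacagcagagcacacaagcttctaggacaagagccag
TNFAIP3: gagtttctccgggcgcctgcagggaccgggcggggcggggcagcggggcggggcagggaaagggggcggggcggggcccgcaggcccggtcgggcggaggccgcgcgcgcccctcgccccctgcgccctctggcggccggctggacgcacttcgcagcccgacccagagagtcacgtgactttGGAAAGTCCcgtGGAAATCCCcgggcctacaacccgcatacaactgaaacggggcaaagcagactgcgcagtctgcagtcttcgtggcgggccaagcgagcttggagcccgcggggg
The CXCL8 window holds 1 match, beginning 91 bases before the start, and that of TNFAIP3 holds 2, beginning 67 and 55 bases before it. A match was found in 15 of the 24 tested members with a window (62.5%), in 10 of the 18 that were called (55.6%), in 23.3% of the 9100 windows of genes tested and in 20.1% of all 35116 windows. A match is a description of letters, and binding was not measured.

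Some growth factor response genes and immediate early genes also differed, and only their RNA was measured. The ERK cascade, which runs from growth factor receptors through RAS and RAF, is read out by its feedback inhibitors and by ETS factors. Of 17 tested genes of that list 9 were called higher and 0 lower (52.9% beside 17.9% of all genes, median 0.36). Among them the ligands TGFA, AREG and HBEGF differed by 0.59, 0.58 and 0.76, the ETS factor ETV4 by 0.63, the inhibitor SPRY4 by 0.80 and PHLDA1 by 0.93. The PHLDA1 libraries held 165, 170.3 and 158.5 CPM in siANLN at 24 h, against 136, 147 and 139.6 CPM in siNC. By 48 h they held 357, 338 and 343 CPM, against 155.5, 155 and 155 CPM, so the groups were apart at both times. The phosphatase gene DUSP7 and the inhibitor SPRED1 differed by −0.01 and 0.02 without a call.

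Immediate early genes, transcribed within minutes of a stimulus, were divided. Of 22 tested, 4 were called higher (FOSL1, KLF6, JUN and SGK1) and 4 lower (FOSB, EGR1, IER2 and JUNB), with a median of −0.03. That is 36.4% of the tested members beside 17.9% of all genes. JUN and KLF6 differed by 0.44 and 0.61, FOSB by −0.84 (SE 0.13). Without replicate 3 of siNC at 48 h, 2 members were called lower.

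Interferon-stimulated genes had lower changes at 48 h than at 24 h. These genes encode antiviral proteins and are switched on through STAT and IRF factors. Of 38 listed genes 32 were tested, and 21 were called lower and 0 higher (65.6% beside 17.9% of all genes). The median was −0.35. All 32 differences were negative, from −1.17 (SAMD9L) to −0.05 (OAS3). At 24 h 3 of them were called higher and 4 lower in siANLN, and at 48 h 0 were higher and 25 lower.

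OASL, an inhibitor of viral replication, was among the most abundant. It held 739, 743 and 754 CPM in siANLN at 24 h, against 768, 808 and 782.5 CPM in siNC. At 48 h it held 626, 655 and 629 CPM in siANLN, against 953, 961 and 989 CPM in siNC, so the groups were apart at both times (difference −0.53, SE 0.04, edgeR Benjamini-Hochberg adjusted p = 2.32e-19). The transcription factor gene IRF1 held 79.6, 76.3 and 76.5 CPM in siANLN at 24 h, against 92.8, 99.5 and 97.7 CPM in siNC, and 143, 145 and 144 CPM at 48 h, against 250.3, 255 and 249 CPM (difference −0.48). IRF1 levels in siANLN thus stood below siNC at both times while both arms were higher in the 48 h table. PARP14 and PARP9, which encode ADP-ribosyltransferase family proteins, differed by −0.56 and −0.58, the synthetase gene OAS2 by −0.67 and the helicase gene DDX60 by −0.49. The factor STAT2 differed by −0.43 and was called. SAMD9L, named among the 12 largest, differed by −0.72 on log2(FPKM + 1).

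DDX60 and IFIT3 are shown because both were called with small adjusted p and both carry interferon response elements. These are matches to GAAANNGAA on either strand, in capitals. Members with a smaller adjusted p, such as OASL, were passed over because only members with a window holding a match were printed. DDX60 lies at chr4:168318703-168319002 (minus strand) and IFIT3, a member of the IFIT family that binds viral RNA complexes, at chr10:89327747-89328046 (plus strand).
DDX60: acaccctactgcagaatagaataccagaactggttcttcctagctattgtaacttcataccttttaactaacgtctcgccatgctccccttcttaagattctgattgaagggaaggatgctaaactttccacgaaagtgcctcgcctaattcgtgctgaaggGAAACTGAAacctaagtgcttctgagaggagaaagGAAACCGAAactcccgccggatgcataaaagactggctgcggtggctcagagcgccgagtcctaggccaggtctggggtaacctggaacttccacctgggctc
IFIT3: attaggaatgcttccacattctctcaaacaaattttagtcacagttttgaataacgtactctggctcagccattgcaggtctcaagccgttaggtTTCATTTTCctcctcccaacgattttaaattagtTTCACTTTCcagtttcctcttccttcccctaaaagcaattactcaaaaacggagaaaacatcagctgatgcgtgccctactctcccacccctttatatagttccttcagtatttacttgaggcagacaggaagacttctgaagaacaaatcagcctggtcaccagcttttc
Each window holds 2 matches, beginning 88 and 53 bases before the start in DDX60 and 155 and 121 in IFIT3. Of 26 tested members with a window 19 hold a match (73.1%), as do 11 of the 16 that were called (68.8%), 6.26% of the windows of genes tested and 8.11% of all windows. The paired dot plots show both lists at both times.

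**Figure D3:**
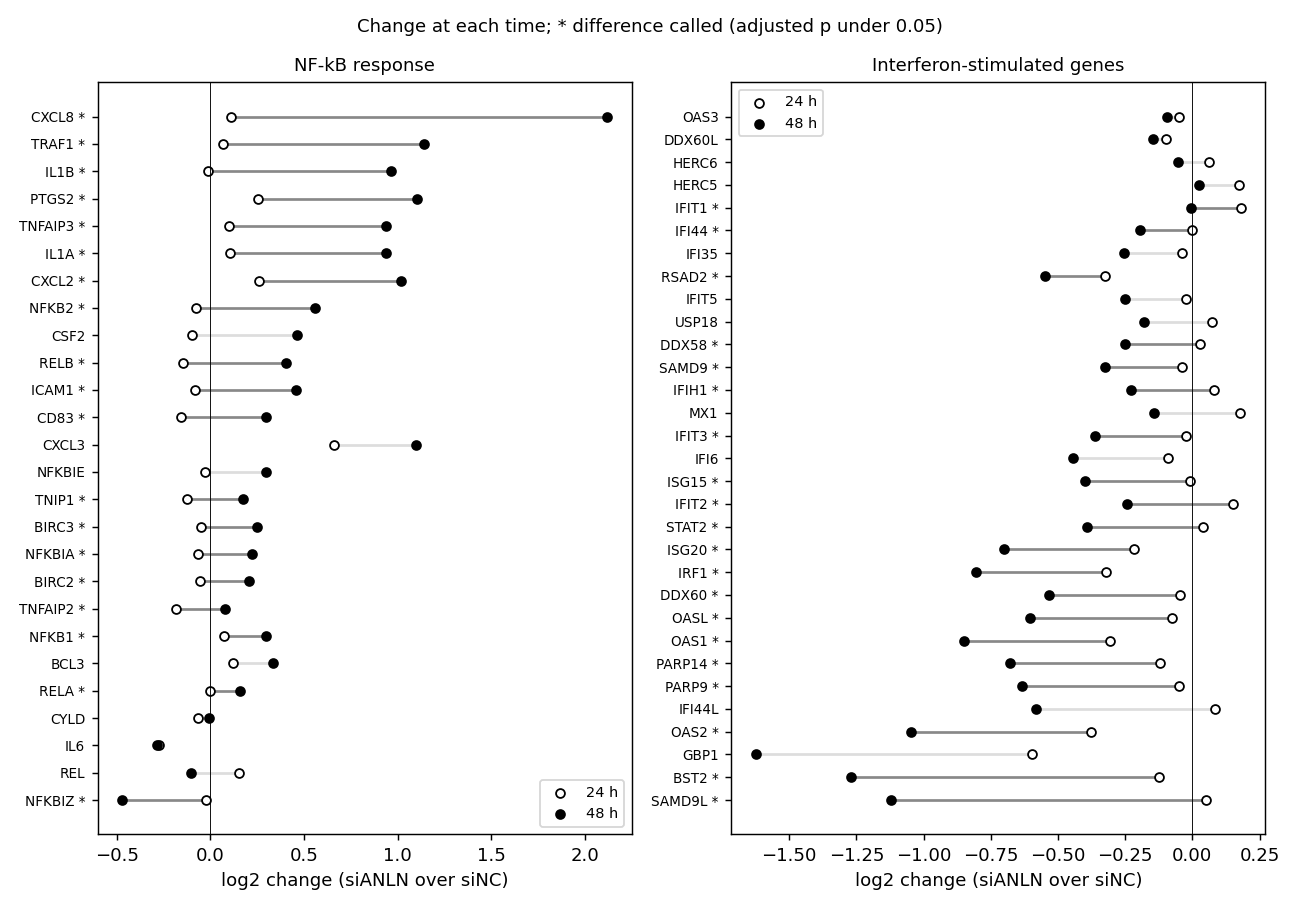
Log2 change (siANLN over siNC, x axis) at 24 h (open circles) and 48 h (filled circles) for each tested member of the NF-kB list (left, 26 genes) and of the interferon list (right, 31 of 32 genes), joined by a line and ordered by the difference, with an asterisk where it was called. Filled circles lie right of open ones for most NF-kB genes, with NFKBIZ as the called exception, and left of them for the 31 interferon-stimulated genes shown.

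Among genes of squamous cells, several keratins had lower changes at 48 h, and COL17A1 and LAMB3 higher ones. Basal squamous cells carry KRT5 and KRT14 under the control of the factor p63 (TP63). Of 17 tested genes of basal identity 8 were called lower and 3 higher (64.7% beside 17.9% of all genes, median −0.19). KRT5 held 1782, 1706 and 1696 CPM in siANLN at 24 h, against 2272, 2224 and 2394 CPM in siNC. After 48 h it held 1357, 1397 and 1387 CPM in siANLN, against 3315, 3235 and 3408 CPM in siNC, and the groups were apart at both times (difference −0.86, SE 0.04, edgeR Benjamini-Hochberg adjusted p = 1.39e-33). KRT15 groups overlapped at 24 h (52.4, 55.2 and 49.5 CPM in siANLN, against 50.6, 49.8 and 49.8 CPM in siNC). At 48 h KRT15 stood at 78.6, 81.2 and 83.2 CPM in siANLN, against 162.5, 159.5 and 170.3 CPM in siNC. TP63 itself differed by −0.39 (SE 0.05). In bulk RNA, fewer cells of a type and less RNA per cell cannot be told apart. The fibroblast collagen gene COL1A1, at a mean of 11.4 CPM, differed by −0.64 and was called, and its part in these results was not tested.

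The members called higher include COL17A1 (0.40) and LAMB3 (0.26), which encode a hemidesmosome collagen and a laminin chain. LAMB3 was called lower in siANLN at 24 h (−0.15) and higher at 48 h (0.11). Of 12 tested genes of squamous differentiation 5 were called lower and 0 higher (41.7% beside 17.9% of all genes). Among the 5 were KRT16, KRT17 and KRT6A (differences of −1.33, −0.89 and −0.90) and the peptidase gene KLK5 (−0.34). The keratins KRT6A, KRT14, KRT16 and KRT17 have close relatives and pseudogenes that could share their reads, which makes these values uncertain. Of 19 tested junction genes 7 were called lower and 2 higher (47.4% beside 17.9% of all genes). The desmosomal genes DSC3, PKP1 and DSP differed by −0.42, −0.39 and −0.33, and PERP, also of desmosomes, by 0.21, a call lost on FPKM.

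Notch signalling passes between touching cells and supports squamous differentiation. Of 19 tested genes 7 were called lower and 1 higher (42.1% beside 17.9% of all genes, median −0.27). The receptor genes NOTCH3 and NOTCH1 differed by −1.48 and −0.56, the ligand genes JAG2 and JAG1 by −0.36 and −0.27, and the target genes HES2 and HES1 by −0.97 and −0.39. NOTCH2 differed by 0.01 without a call. RBPJ, the DNA-binding partner of the pathway and the 1 member called higher, differed by 0.33 and lost its call on FPKM. Presentation by MHC class I, which shows peptides to T cells, had 9 of its 18 listed genes outside the siNC window. Of the 7 tested, 4 were called lower and 2 higher (85.7% beside 17.9% of all genes). Those lower were TAPBPL, NLRC5, ERAP2 and ERAP1 (from −0.77 to −0.17). Those higher were the chaperone genes CALR (0.38) and PDIA3 (0.14, a call lost with library size alone). The Notch list median was −0.05 when the siNC window was narrowed to 2-fold, a window that NOTCH3 does not pass.

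Among genes of sugar, sterol and protein handling the called differences were higher at 48 h but for TM7SF2 and ERGIC1. Of 27 tested hypoxia and glycolysis genes 16 were called higher and 0 lower (59.3% beside 17.9% of all genes, median 0.17). On log2(FPKM + 1) 8 were called higher. The glucose transporter gene SLC2A3 held 231, 203.5 and 224 CPM in siANLN at 24 h, against 161.5, 151 and 161.5 CPM in siNC. By 48 h it held 363, 342 and 346 CPM in siANLN, against 149.5, 152 and 148 CPM in siNC, and the groups were apart at both times (difference 0.75, SE 0.05). NDRG1, ADM and VEGFA differed by 0.71, 0.64 and 0.69. CA9, a carbonic anhydrase used as a hypoxia marker and named after its value was seen, differed by −0.17 and was not called.

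Sterol synthesis is set by the factor SREBP2, whose release INSIG1 restrains. Of 19 tested genes 11 were called higher and 1 lower (63.2% beside 17.9% of all genes, median 0.22). On log2(FPKM + 1) 7 were called higher. INSIG1 held 50.0, 49.2 and 56.3 CPM in siANLN at 24 h, against 49.9, 53.6 and 44.6 CPM in siNC. In the 48 h libraries it held 155, 149.8 and 146 CPM in siANLN, against 85.5, 79.7 and 86.5 CPM in siNC. The INSIG1 groups overlapped at 24 h and were apart at 48 h (difference 0.77, SE 0.08). HMGCS1, an early enzyme of the pathway, differed by 0.49. TM7SF2, a sterol reductase gene and the 1 member called lower (−0.37), lost its call in 15 alternatives.

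The unfolded protein and ATF4 responses raise chaperones and amino acid enzymes under stress. Of 27 tested genes 12 were called higher and 0 lower (44.4% beside 17.9% of all genes, median 0.21). The pseudokinase gene TRIB3 differed by 0.72 (changes of 0.47 and 1.19), DDIT4, an inhibitor of mTORC1, by 0.55 and the chaperone gene HSPA5 by 0.31. For DDIT4, 41.2% of the exon bases overlap DDIT4-AS1 on the opposite strand, and whether counting used strand is not given in the sources used here. Among 18 genes of N-glycan trimming and cargo export 7 were called higher and 1 lower (44.4% beside 17.9% of all genes). GANAB, the catalytic subunit of glucosidase II, changed by 1.17 at 24 h and 1.53 at 48 h, and ERGIC1, a membrane protein of early secretory traffic, by −1.09 and −1.51.

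Among antioxidant genes driven by NRF2 the called differences were lower at 48 h. Of 21 tested 7 were called lower and 0 higher (33.3% beside 17.9% of all genes, median −0.11). GCLC, which begins glutathione synthesis, differed by −0.36. HMOX1 and SLC7A11 differed by 0.35 and 0.24 without a call.

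The transcription machinery is the subject of the series. Of 11 tested RNA polymerase II subunit genes 4 were called higher and 0 lower (36.4% beside 17.9% of all genes, median 0.15). In the highest quartile of mean level, 85.4 CPM or more, 36.4% of all genes were called. POLR2B, POLR2C and POLR2E lie in that quartile and POLR2D averaged 71.8 CPM. The part of level in this share was not tested. Of the 4, 2 were called with library size alone. Also 2 were called without either replicate 2 of siNC at 48 h or replicate 3 of siANLN at 48 h. POLR2C and POLR2E differed by 0.28 and 0.25. The gene of the largest subunit, POLR2A, had siNC levels more than 4-fold apart and was not tested. General transcription factors had 4 of 25 called higher (16%), GTF2F2 with the largest value (0.56), and Mediator 2 of 28 (7.14%, CCNC and MED24). Neither list had a member called lower. With library size alone no Mediator gene was called higher and 2 were called lower.

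Among 24 pausing and elongation factors 7 were called higher and 1 lower (33.3% beside 17.9% of all genes, median 0.09), and 3 higher with library size alone. ELL2, a factor of the super elongation complex, held 112.5, 97.8 and 107 CPM in siANLN at 24 h, against 110.0, 95.2 and 98.6 CPM in siNC. At 48 h it held 145, 144 and 142 CPM in siANLN, against 89.6, 84.7 and 91.5 CPM in siNC (difference 0.64, SE 0.07). ELL2 groups overlapped at 24 h and were apart at 48 h. AFF1, a scaffold of the same complex and the 1 member called lower, differed by −0.57 (SE 0.09).

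Of 28 tested cytokinesis genes, partners and upstream regulators of anillin, 10 were called higher and 0 lower (35.7% beside 17.9% of all genes, median 0.08). MYH9, the heavy chain of non-muscle myosin, held 2682, 2571 and 2511 CPM in siANLN at 24 h, against 2320, 2253 and 2416 CPM in siNC. By 48 h it held 2933, 2976 and 3021 CPM in siANLN, against 1977, 1941 and 1993 CPM in siNC, and the groups were apart at both times (difference 0.44, SE 0.04). BIRC5 (survivin) differed by 0.50. The regulators ECT2 and RACGAP1 and the citron kinase gene CIT, which act with anillin at the ring, differed by −0.02, −0.03 and 0.01 without a call.

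Of 33 G2/M genes 6 were called higher and 1 lower (21.2% beside 17.9% of all genes). With library size alone, or without replicate 1 of siANLN at 48 h, 3 were called higher. Of 38 replication genes 6 were called higher and 3 lower (23.7%). Both shares are near that of all genes. The cyclin genes CCNE1 and CCNE2, which open S phase, differed by −1.05 and −0.43, and the helicase subunit gene MCM7 by 0.28. Among 27 nucleolar genes 11 were called higher and 0 lower (40.7% beside 17.9% of all genes, median 0.10). On log2(FPKM + 1) 6 of them were called, and NOLC1 (0.56) and TCOF1 (0.43) were in front. NOLC1 had changed by 1.15 at 24 h and by 1.71 at 48 h. Cytosolic ribosomal protein genes had 5 of 63 called higher (7.94%, median 0.03, which turned to −0.02 with library size alone). The plot of differences by list orders 21 of the lists by their medians.

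**Figure D4:**
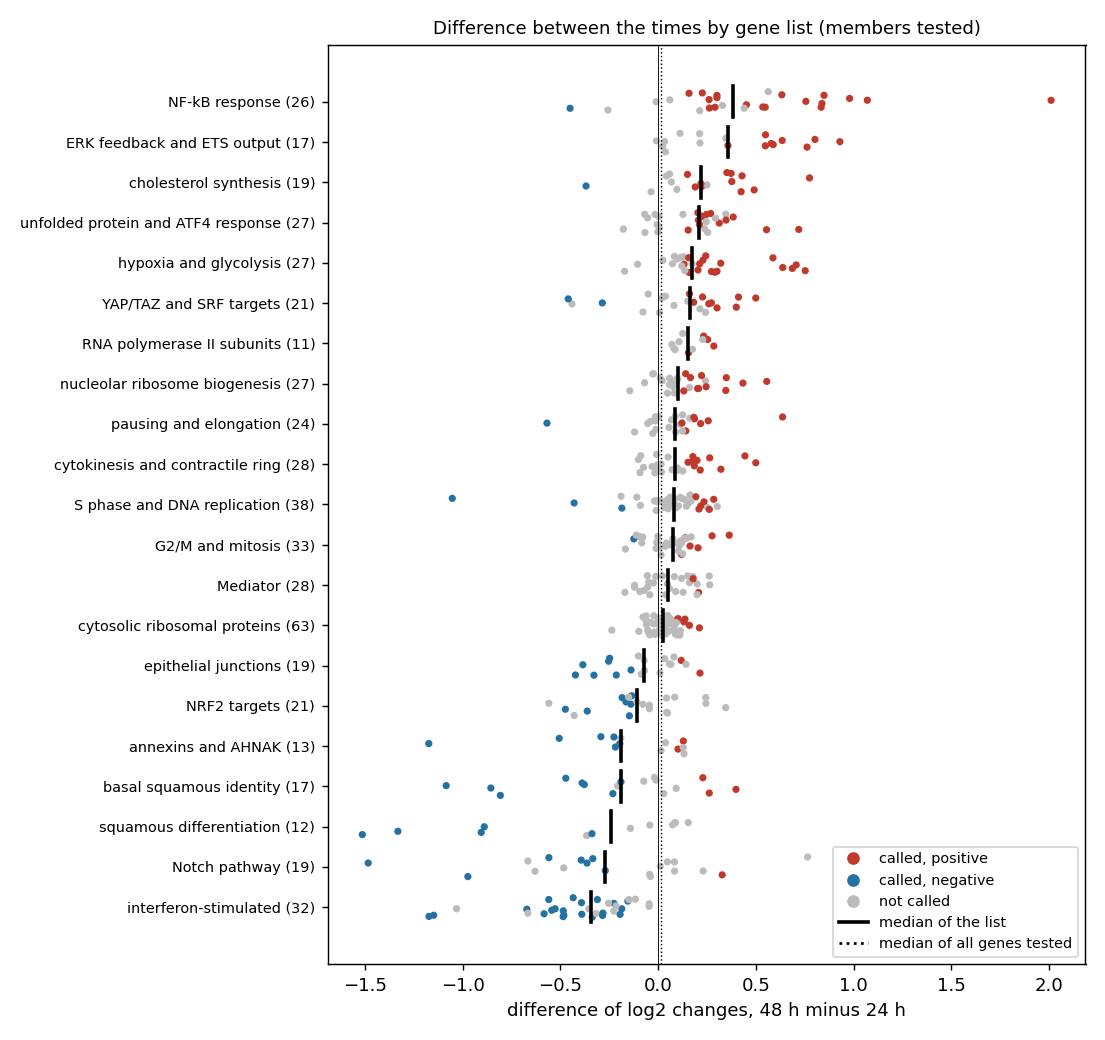
Difference of log2 changes, 48 h minus 24 h (x axis), for tested members of 21 gene lists (rows, number of genes in brackets); each point is a gene, red or blue where called positive or negative and grey where not called, black bars are list medians and the dotted line is the median of all genes tested. Medians run from 0.39 in the NF-kB list to −0.35 in the interferon list, and ribosomal protein genes cluster near 0.

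Adhesion, cytoskeleton and matrix genes were mixed. Targets of YAP and TAZ, coactivators that sense tension, and of SRF had 9 of 21 called higher and 2 lower. That is 52.4% beside 17.9% of all genes. The receptor gene AXL and the matricellular genes CTGF and CYR61 differed by 0.41, 0.50 and 0.30, and vinculin (VCL) by −0.46. Of 24 integrin and focal adhesion genes 8 were called higher and 3 lower (45.8% beside 17.9% of all genes). On log2(FPKM + 1) 2 were called higher and 2 lower. The integrin gene ITGB1 differed by 0.39 and the tensin gene TNS1 by −1.44, at a mean of 3.24 CPM and with no call on log2(FPKM + 1). Annexins, their S100 partners and AHNAK proteins had 6 of 13 called lower and 2 higher (61.5% beside 17.9% of all genes). AHNAK differed by −0.51. The 2 higher, ANXA1 and ANXA2, lost their calls with library size alone and on FPKM. ANXA2 also lost its call on leaving out any 1 of 9 libraries. Around activin, 7 of 28 genes of the TGF-beta family and its signalling were called higher and 1 lower (28.6% beside 17.9% of all genes). SMAD3, which carries activin signals to the nucleus, differed by 0.36, and FSTL3, which binds activin, was the 1 lower (−0.43).

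Some changes called at 24 h were not called at 48 h, which does not show that they were absent. Of the genes called only at 24 h, the rule named GPR89A, ABCA1, TTC39B, S1PR5, MYH15 and APH1B. APH1B was still 1.17-fold higher at 48 h without a call. Its siANLN libraries (20.4, 19.2 and 20.9 CPM) all lay above siNC (17.4, 15.8 and 18.7 CPM) at that time. ABCA1, a cholesterol exporter, held 6.75, 6.92 and 5.82 CPM in siANLN at 24 h, against 4.31, 2.89 and 5.37 CPM in siNC. In the 48 h libraries it held 7.78, 6.24 and 9.01 CPM in siANLN, against 9.31, 9.97 and 8.36 CPM in siNC, with the groups apart at 24 h and overlapping at 48 h (difference −0.91, SE 0.23, edgeR Benjamini-Hochberg adjusted p = 0.00243). Its call was lost on FPKM. Those of S1PR5 and MYH15 were lost in 16 and 15 alternatives.

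In 46 genes the change was called at both times with opposite signs. STX1A, a syntaxin of vesicle fusion, held 8.30, 9.29 and 9.25 CPM in siANLN at 24 h, against 10.99, 10.9 and 11.9 CPM in siNC. After 48 h it held 15.8, 17.8 and 15.02 CPM in siANLN, against 13.5, 13.3 and 12.6 CPM in siNC, so siANLN was lower in all libraries at 24 h and higher in all at 48 h. GADD45A, a stress gene that responds to DNA damage, changed by −0.21 at 24 h and 0.24 at 48 h, and DRAP1, a corepressor subunit that binds TBP, by −0.21 and 0.35. ZNF195, SNTB2 and MBNL3 were called higher in siANLN at 24 h and lower at 48 h, with changes at 48 h of −0.39, −0.34 and −0.30. For STX1A, 17.9% of the exon bases overlap BUD23 on the opposite strand. The 6 genes with the same sign and a smaller change at 48 h were UAP1, H1F0, ARNTL2, PLAU, NFE2L2 and IER2. UAP1, an enzyme of UDP-N-acetylglucosamine synthesis, changed by −0.75 at 24 h and −0.47 at 48 h. NFE2L2, which encodes NRF2, changed by −0.45 and −0.24, a difference of 0.21 that lost its call on FPKM. Counts are also uncertain for other genes that share at least 5% of their exon bases with another annotated gene. Besides those given, they include POLR2B, POLR2D, PHLDA1, GCLC, MCM7, VCL, HMGCS1, CCNC, KLK5, KLK10, JAG2, TAPBPL, CALR, PDIA3, PLAU, NFE2L2 and IER2.

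Seen from 24 h, 33 genes had risen and 34, ANLN among them, had fallen at least 2-fold at that time. Most of the 34 and many of the 33 averaged under 5 CPM, where a difference may go uncalled for lack of counts. The 24 h change picked these genes and is subtracted in the difference, which favours movement back. The counts that follow therefore describe the genes and test nothing. Of the 33, 18 were called higher at 48 h as well, 7 genes had a larger change at 48 h with a called difference, 3 had a called difference against the direction at 24 h, and 23 differences were not called. Of the 34, 15 were called lower at 48 h, 2 had a larger change at 48 h with a called difference, 5 had a called difference against the direction at 24 h, and 27 differences were not called. TMEM64, which changed by −1.36 at 24 h, had reached −2.17 at 48 h, and TPM4, a tropomyosin of actin filaments, changed by 1.53 and 1.69. In the genes whose called difference ran against the 24 h change, 3 and 5, the estimated change at 48 h had the opposite sign, and it was called at 48 h in 1 gene of each set. Among them GPR89A was the 1 with a mean above 5 CPM.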

How the data were processed

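Per the submitters' processing notes, reads were handled with cutadapt 1.18, STAR 2.7.3a, featureCounts and DESeq2 1.44.0 on GRCh38. For counting, neither annotation nor strand setting is stated in the sources used here. The deposited tables hold whole-number counts per gene, made by the authors, and FPKM values computed by the authors. The 2 times have separate tables, with 58735 gene IDs at 24 h and 38318 at 48 h, of which 35484 are shared. Gene names came from GENCODE release 29.

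Counts were tested with edgeR 4.0.16 (R 4.3.3) by the quasi-likelihood test with robust dispersion, TMM factors, the filterByExpr filter and a 4-fold window on siNC levels. A model with 1 mean per group was fitted to 12 libraries, and p-values were adjusted over 13078 genes by the Benjamini-Hochberg method at a threshold of 0.05. The gene lists were chosen with earlier results of these data known. The code was tested on simulated counts with known changes.

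Genes are named by rule. It takes ANLN, the 12 largest differences each way among called protein-coding genes averaging 5 CPM or more, and the 6 largest in each of 3 patterns (24 h only, opposite directions, smaller at 48 h). It also takes the 4 called members of each list with the smallest adjusted p and up to 2 of the rarer direction. Other list members given, among them all members not called, were chosen after their values were seen. Alternatives were other scalings, filters and windows, DESeq2 1.42.0, limma 3.58.1 (voom, and log2 of FPKM plus a pseudocount of 1 or 0.1), a replicate block and leaving out each library. Promoters came from RefSeq (GRCh38.p14). Some genes are not reported here.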

Additional observations from a re-analysis of the deposited data

Results flagged for a closer look

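The comparison between the times is itself a test of whether 2 effects differ, and it was passed by 2335 of 13078 genes (edgeR quasi-likelihood, Benjamini-Hochberg adjusted). In 6 named genes the change was called at both times with opposite signs. STX1A, GADD45A and DRAP1 were lower in siANLN at 24 h and higher at 48 h, with differences of 0.6301, 0.4555 and 0.5582. ZNF195, MBNL3 and SNTB2 were higher in siANLN at 24 h and lower at 48 h, with differences of −0.5979, −0.5854 and −0.4753. Among the 4547 genes left out because their siNC levels lay more than 4-fold apart, 133 were called when the window was lifted (2.93%), 64 higher and 69 lower. For those genes the 2 tables differ in the control arm, and the values are given without further reading.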

How the results depend on the processing

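Over 24 alternatives the number of genes called ranged between 1301 and 2435, and the 2335 genes kept their direction in each alternative that held them (2142 of them under a 2-fold siNC window). The edgeR and voom alternatives gave 2122 to 2435 calls with all libraries, and DESeq2 gave 1914. On log2(FPKM + 1) 1674 genes were called, 775 higher, on log2(FPKM + 0.1) 1615, 769 higher, and on log2(FPKM + 1) without the filter on low values 1301, 620 higher. That last setting also gave 1211 genes changed at 24 h in the same model, and the causes were not tested. Library size alone gave 2208 calls and moved the share called higher to 45.7%. Replicate numbers showed no sign of pairing the libraries, though with 3 libraries per group the check cannot exclude it. Deviations of same-numbered libraries correlated by −0.0206 to 0.0485, against −0.0667 to 0.0604 for differently numbered ones. A fit with the number as a block called 2435 genes. Leaving out 1 library at a time gave 1924 to 2299 calls, 1218 to 1419 of them higher and 700 to 880 lower. Of the 2335 calls, 80.2% were kept with library size alone and 81.7% with DESeq2. On log2(FPKM + 1), log2(FPKM + 0.1) and log2(FPKM + 1) without the filter, 62.7%, 61.8% and 50.2% were kept. Of 182 named genes called, 138 kept their call in every alternative that held them, 44 lost it in at least 1 and 0 reversed. Genes outside the 2-fold siNC window, FOSL1, CXCL8, NOTCH3 and KRT15 among them, were not tested in that alternative. Named genes were picked by large differences or small adjusted p, so their counts do not stand for all calls. Ribosomal protein genes called higher numbered 10 without replicate 2 of siANLN at 24 h, and p53 targets called lower 2 without replicate 1 of siNC at 48 h. Depth limits the reading of low genes, and with 2 tables processed apart, time and table cannot be told apart.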

Other observations

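Among matrix and protease genes not described above the called differences were higher at 48 h but for FN1. Of 16 tested genes of mesenchymal character 5 were called higher and 1 lower (37.5% beside 17.9% of all genes). Thrombospondin (THBS1) differed by 0.61, the lysyl oxidase gene LOXL2 by 0.37, tenascin (TNC) and the basement membrane collagen COL4A1 by 0.31 each, and fibronectin (FN1), the 1 lower, by −0.20. Of 15 tested genes of the plasminogen system and metalloproteases 5 were called higher and 0 lower (33.3% beside 17.9% of all genes). The 5 include the collagenase gene MMP1 (1.17, at a mean of 2.54 CPM) and MMP14 (0.26).

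Targets of p53 were divided, with 5 of 26 called higher and 4 lower (34.6% beside 17.9% of all genes tested), and 7 lower with library size alone. CDKN1A, the inhibitor of cyclin-dependent kinases, differed by −0.39, the death receptor gene TNFRSF10B by 0.33 and the kinase gene PLK3 by 0.44. Among 15 tested genes around cyclin D, 2 were called higher and 2 lower (26.7% beside 17.9%), with CDK6 at 0.53 and CDKN1B at −0.21. The CDKN1B call was lost in 4 alternatives, DESeq2 among them, and on leaving out any 1 of 6 libraries. In the BCL2 family 3 of 17 were called higher and 1 lower (23.5% beside 17.9%), a share near that of all genes. The pro-death gene BCL2L11 differed by −0.46 and the survival gene BCL2L1 by 0.30. Both share exon bases with other annotated genes, ABALON with 43% of BCL2L1, so their counts are uncertain. Nuclear genes of oxidative phosphorylation had 4 of 31 called higher and 1 lower (16.1%), and Polycomb subunits 1 of 22 higher and 2 lower (13.6%), both shares below that of all genes tested. Of 10 tested genes of the machinery that siRNAs use, AGO2 was called higher (0.21) and AGO3 lower (−0.34), a share of 20% and thus near that of all genes. The AGO2 call was lost with library size alone, on FPKM and without replicate 1 of siANLN at 48 h.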
